A study of Populus tremula x Populus alba with 14 samples.

Results

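How the difference between outer and inner bark changed with stem age was measured in stems of a hybrid poplar, clone INRA 717-1B4, a cross between Populus tremula and Populus alba. For each numbered stem the outer bark level of a transcript was set against the inner bark level of the same stem. These layer differences were then compared between 4 old and 3 young stems. All 14 libraries of the series were members of this comparison, 8 from old and 6 from young stems.

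Old stems were 6 to 8 mm in diameter and young stems 4 to 5.5 mm, and all were wild type. Trees were kept in a greenhouse and spent only the growing season outdoors. The labels describe outer bark as the phellem and phellogen, and inner bark as the secondary phloem with the vascular meristem. Because all trees were of a single clone, the 2 ages differed in no genotype given in the labels. Nothing in the labels states that each number is its own tree, so a p-value here speaks for the variation among these libraries, which may be technical in part.

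Bark of a woody stem is made by a pair of lateral meristems. The phellogen, or cork cambium, divides to give phellem outwards, whose cells lay down suberin in their walls, die and form the cork that seals the stem. The vascular cambium gives wood inwards and secondary phloem outwards, and the phloem carries sugars and other solutes along the stem. As a young stem thickens, its first covering is replaced by this secondary covering.

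The deposited files pair no gene identifier with a name, since the symbol column of the count table repeats the identifier (0 genes differed). The labelled tissues could therefore not be checked against cork or phloem markers, and genes are described below by where and when they were higher. In bulk tissue, a lower level may mean fewer cells of a type or less RNA per cell, and these cannot be told apart.

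Library totals were 13419965 to 15980636 counts in old outer bark and 11944485 to 13209115 in old inner bark. In young stems they were 13807373 to 15884964 in outer bark and 13286574 to 15311271 in inner bark. The 4 old inner libraries were thus each shallower than the 3 young inner ones. One young inner library, that of stem 4, carries the leading number 9 in its title while its outer partner carries 20.

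The width of the gap between the layers in each stem is described first. A layer difference is outer minus inner in log2 CPM (counts of a gene per 1000000 counts of the library, on a log2 scale), with a prior count of 2 added so that genes near 0 give finite values, and 27673 genes were measured this way. Genes at least 4-fold higher in inner bark numbered 655, 722, 803 and 1341 in old stems 1 to 4. In young stems 1, 2 and 4 they numbered 246, 155 and 91. Every old stem lay above every young stem, and the lowest old stem had more than 2 times the highest young one.

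The means were 880.25 ± 313 genes in old stems and 164 ± 77.9 in young stems (SD, n = 4 and 3), with a two-sided exact permutation p of 0.0571, the smallest that the 35 regroupings of 7 stems allow. The inner library totals above did not overlap between the ages either, and their part in this gap was not tested. The ages were also apart with a prior count of 0.5, at 953 to 1639 in old and 143 to 313 in young stems. Counts of 4-fold genes were added after seeing the data, so their p-values do not come from a test set in advance. The planned measure was the SD of the layer differences per stem, given below.

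Genes at least 4-fold higher in outer bark did not separate the ages. There were 341, 1211, 1102 and 988 of them in old stems 1 to 4 and 123, 1087 and 777 in young stems 1, 2 and 4. The ranges overlapped (exact permutation p = 0.4, two-sided, n = 4 and 3). Stem 1 had the fewest such genes at each age.

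**Figure D1:**
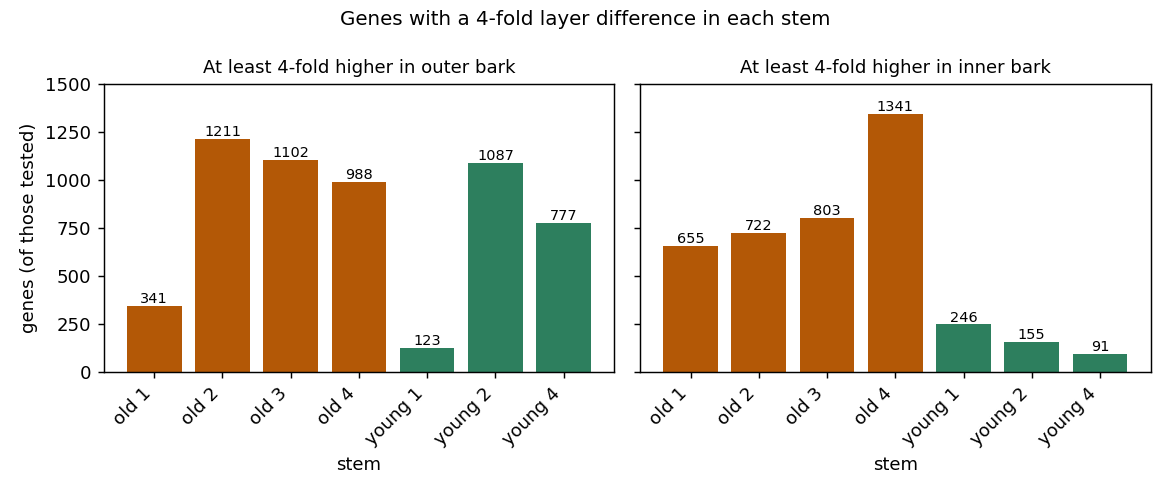
Number of genes (vertical axis) at least 4-fold higher in outer bark (left) or inner bark (right) in each stem (horizontal axis), with old stems in brown and young stems in green. On the right the 4 old stems have 655 to 1341 genes and the 3 young stems 91 to 246, while on the left the ages overlap.

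Over all genes, the spread of the layer differences within a stem had an SD of 0.80, 1.01, 0.99 and 1.07 log2 units in old stems 1 to 4. It was 0.62, 0.92 and 0.80 in young stems 1, 2 and 4. The means of 0.97 ± 0.12 in old and 0.78 ± 0.15 in young stems (SD, n = 4 and 3) overlapped, and the exact permutation p was 0.171 (two-sided). The interquartile range was 0.67 ± 0.06 in old and 0.67 ± 0.14 in young stems (SD, n = 4 and 3; exact permutation p = 0.914, two-sided). A difference in overall spread between the ages was thus not detectable with 7 stems.

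The layer differences of 2 stems of one age were mostly more alike than those of an old and a young stem, though the ranges overlapped when stem 1 was included. Across the 27673 genes, which are not independent replicates, Pearson's r was 0.62 to 0.84 between old stems, 0.70 to 0.83 between young stems and 0.49 to 0.69 between an old and a young stem. Without stem 1 of either age these were 0.79 to 0.84, 0.83 and 0.60 to 0.69. The correlations are a description: all genes of a stem share its 2 libraries.

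Genes were next chosen by the layer differences of one age and read in the other, whose layer differences had no part in the choice. The filter on low counts and the library scaling did use all 14 libraries. There were 1137 genes at least 2-fold higher in inner bark in all 4 old stems, with a median difference of -2.07 log2 units there. In young stems the same genes had a median of -0.77, and 142 of them (12.5%) were at least 2-fold higher in inner bark in all 3 young stems. Choosing genes in an age favours large values in that age, so the reverse choice is given beside it. The 497 genes chosen in young stems had a median of -1.58 there and -1.36 in old stems. Of these, 142 (28.6%) were at least 2-fold higher in inner bark in all 4 old stems, and 314 were higher there by any amount. Of the 1137 genes chosen in old stems, 1047 were higher in inner bark by any amount in all 3 young stems.

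Outer bark genes chosen in either age had most of their gap at the other. The 1101 genes at least 2-fold higher in outer bark in all old stems had a median difference of 2.03 in old and 1.52 in young stems. The 1066 genes chosen in the same way in young stems had a median of 1.85 in old and 1.97 in young stems. Both choices shared 532 genes, 48.3% of the old list and 49.9% of the young list. At 4-fold, 175 genes were higher in outer bark and 148 in inner bark in all old stems, while in all young stems 66 and 33 genes were.

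Whether the layer difference of a gene changed with age was tested by the interaction of layer and age with the stem as a block. Its value is the old layer difference minus the young one, so a negative value means that the gene leaned more towards inner bark in old stems. Of the genes tested, 2840 passed an edgeR adjusted p of 0.05, which is 10.3%. The interaction was negative for 1934 genes (6.99% of those tested) and positive for 906 (3.27%). At least a 2-fold change was fitted for 1422 genes (5.14%), 1027 of them negative and 395 positive.

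The split between the directions depended on the scaling. Library scaling with RLE size factors, in place of the TMM factors used here, gave 1553 negative and 1334 positive genes. The median interaction over all genes was -0.06 with TMM and 0.02 with RLE factors. The count was 781 without young stem 2, 896 without young stem 4 and 1283 without old stem 2. Positive genes numbered 573 without old stem 3 and 508 without old stem 4. Tests on the 7 paired stem differences themselves, with limma, called 845 genes at a prior count of 2 and 408 at 0.5. With the block as a random effect limma called 1367. Without the block edgeR called 0 genes and found 1226 with an unadjusted p under 0.05, against 7387 with the block.

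**Figure D2:**
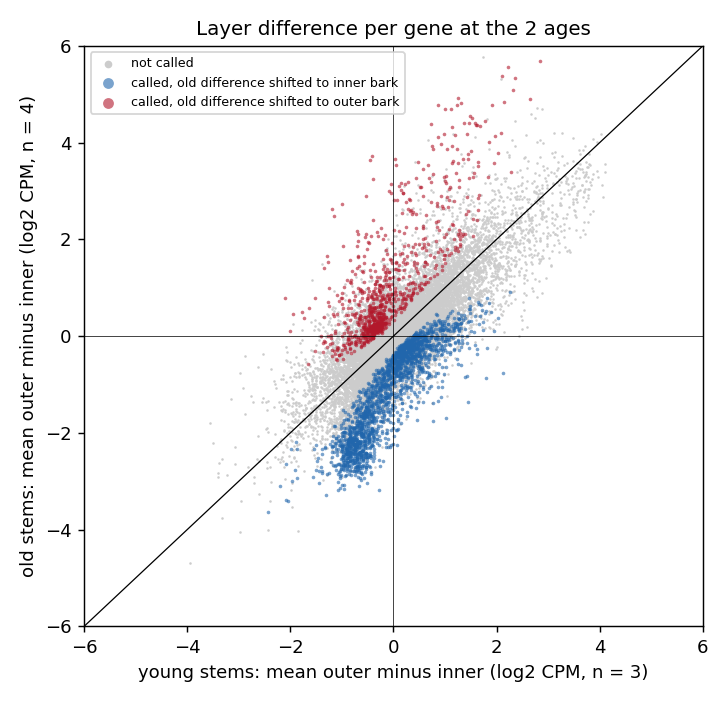
Mean layer difference of each gene in old stems (vertical axis, n = 4) against that in young stems (horizontal axis, n = 3), both as outer minus inner in log2 CPM, with the line of equal differences. The 1934 genes with a negative interaction (blue) lie below the line with a dense group at the lower left, and the 906 with a positive one (red) lie above it.

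The genes with a negative interaction had a median layer difference of -1.03 in old and -0.09 in young stems. For those with a positive one it was 0.65 in old stems and -0.29 in young stems. These values come from the contrast that chose the genes and are given as a description. The old and young stem differences did not overlap in 1876 of the 1934 and 777 of the 906 genes, against 23.9% of all genes tested. Median differences of the negative genes were -0.91, -1.03, -0.92 and -1.09 in old stems 1 to 4, and -0.12, -0.04 and -0.08 in young stems 1, 2 and 4. For the positive genes they were 0.35, 0.76, 0.51 and 0.65 in the old stems, and -0.11, -0.41 and -0.33 in the young stems.

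Called genes were sorted by the age at which their layers differed in the same fit. Layers differed in old stems for 10861 genes (39.2% of those tested) and in young stems for 9219 (33.3%). The young number was 4787 without young stem 2 and 4561 without young stem 4. The 2 counts rest on unequal numbers of stems, 4 old and 3 young. With 3 stems of each age, old and young counts were 8586 and 8436 without old stem 2. They were 8511 and 8482 without old stem 3, and 10432 and 9858 without old stem 1. Without old stem 4 the young count was the larger, at 9343 against 8655. Of the 1934 negative genes, 765 had a layer difference that passed in old stems only, and all 765 were higher in old inner bark. Another 360 passed in young stems only, all of them higher in young outer bark. Here and for the positive genes below, such directions follow largely from the sign of the interaction that sorted the genes. Both ages passed in the same direction for 657 and in opposite directions for 141 genes, and 11 passed at neither age. Single stems moved these counts. Without old stem 2, young stem 2 or young stem 4 the negative genes had 341, 295 and 440 in old stems only, 116, 33 and 40 in young stems only, and 423, 185 and 176 in the same direction. In old stems only there were also 478 without old stem 4 and 497 without young stem 1, and in young stems only 234 without old stem 3. With RLE factors, 558 negative genes passed in old stems only, fewer than the 648 in the same direction at both ages.

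Of the 906 positive genes, 365 passed in old stems only, all higher in old outer bark, and 279 in young stems only, all higher in young inner bark. Both ages passed in the same direction for 157 and in opposite directions for 100 genes, and 5 passed at neither age. All 241 genes whose layers passed in opposite directions at the 2 ages also passed the test of the interaction. That outcome was nearly fixed in advance, because layer differences of opposite sign add up in the interaction. They make up 0.871% of the genes tested, against 20.9% whose layers passed in the same direction at both ages. Genes called with opposite directions numbered 132 without old stem 2, 61 without young stem 2 and 59 without young stem 4, and 370 without stem 1 of both ages. Among positive genes, those in old stems only numbered 128, 137 and 116 without old stem 2, young stem 2 and young stem 4, and those in young stems only 95, 26 and 37. Positive genes in young stems only outnumbered those in old stems only without young stem 1 (529 against 403) and with RLE factors (484 against 477).

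**Figure D3:**
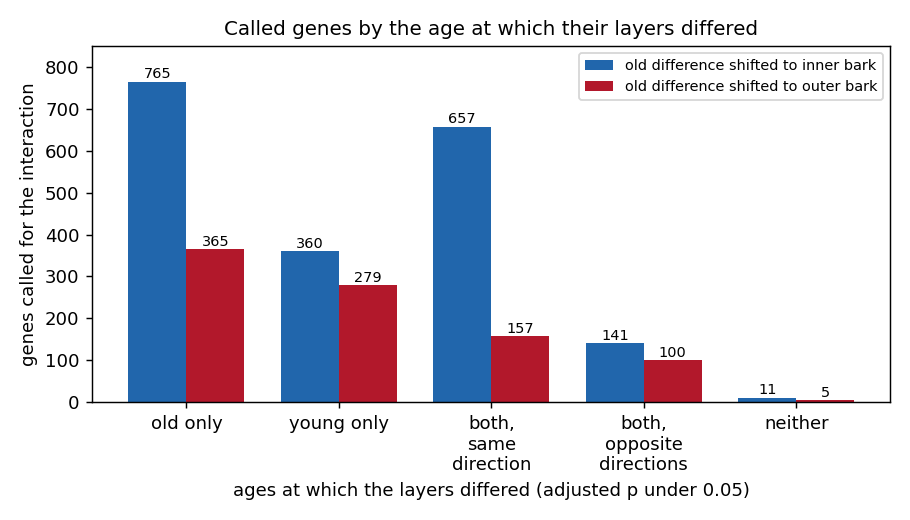
Number of genes called for the interaction (vertical axis) by the ages at which their layers differed (horizontal axis), with negative interactions in blue and positive ones in red. With all stems and TMM factors, layers differing in old stems only has the tallest bar in each direction, with 765 and 365 genes. That order changes with RLE factors and when some single stems are left out.

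Among genes whose layers differed in the same direction at both ages, 615 were higher in inner bark with a wider gap in old stems. The opposite case, inner bark genes with a wider gap in young stems, had 18 members. With 1 stem left out, genes with the wider gap in old stems numbered 172 to 715 and those with the wider gap in young stems 0 to 24. Those wider in old stems were 172 without young stem 4, 181 without young stem 2 and 351 without young stem 1, and outnumbered the others in each of these fits. Median layer differences of the 615 genes were -1.79, -2.06, -2.14 and -2.44 in old stems 1 to 4. In young stems 1, 2 and 4 they were -0.62, -0.68 and -0.90. The quartiles of the fitted differences were -2.59 and -1.78 in old stems and -0.90 and -0.60 in young stems, a separation that the choice of the genes by their interaction fixes in part and that supports nothing by itself.

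The levels of these 615 genes in each layer are given as a description, because the same libraries served to choose the genes. Their median was 2.72 to 5.73 CPM in old outer and 10.97 to 25.3 CPM in old inner bark over the 4 stems. It was 14.8 to 21.2 CPM in young outer and 24.4 to 34.6 CPM in young inner bark over the 3 stems. Old outer bark was thus below each of the other 3 groups with no overlap. That outer lay below inner bark within each age follows from the choice, and choosing a wider gap in old stems favours a low old outer level. Over all tested genes the median was 10.9 to 13.2 CPM in old outer and 11.4 to 13.2 CPM in old inner bark. The young libraries were at 14.2 to 15.0 CPM for outer and 13.5 to 14.1 CPM for inner bark. For the 615 genes the median log2 difference of old minus young was -1.90 in outer and -0.57 in inner bark. The age difference itself lies between stems and was not tested here.

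Outer bark genes with a wider gap in old stems numbered 139, against 42 with a wider gap in young stems. This order was the reverse without young stem 1, with 91 against 181 genes, and without stem 1 of both ages, with 134 against 242. The 139 were 46 without old stem 2, 64 without old stem 3, 82 without old stem 4, 44 without young stem 2 and 26 without young stem 4, and 232 without old stem 1. Median layer differences of the 139 genes were 1.39, 2.11, 2.09 and 2.03 in old stems 1 to 4, and 0.81, 1.08 and 1.01 in young stems 1, 2 and 4. Their median level was 13.4 to 22.2 CPM in old outer and 3.35 to 4.99 CPM in old inner bark. In young stems it was 19.8 to 23.5 CPM in outer and 10.4 to 12.4 CPM in inner bark. Here it was the old inner libraries that were below all others, while the old and young outer libraries overlapped. The choice of these genes in the same libraries fixes this order in part.

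Both full lists were also summed as shares of a library. The lists were chosen by the interaction in these same libraries. The order of the shares is thus fixed in part by the choice and supports nothing by itself. Old outer bark had 10.2% ± 0.735 of its counts on the 1934 negative genes and old inner bark 15.2% ± 1.80 (SD, n = 4). Young outer bark had 10.6% ± 0.802 on them and young inner bark 10.4% ± 0.625 (SD, n = 3). The old inner libraries thus had the highest mean share. On the 906 positive genes, old outer bark had 4.49% ± 1.16 and old inner bark 3.42% ± 1.15 (SD, n = 4). Young outer bark had 5.14% ± 0.24 and young inner bark 6.35% ± 0.256 (SD, n = 3), the highest of these means. The age difference, old minus young in mean log2 CPM, was negative in both layers for 560 of the 906 positive genes. The same held for 743 of the 1934 negative genes and 12008 of the 27673 genes tested. Medians of the age difference over the positive genes were -0.22 log2 units in outer and -1.10 in inner bark. For the negative genes these medians were -0.75 and 0.31, and over all genes tested -0.04 and 0.01.

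Each stem was also read for genes that had been called without it. Among genes called negative in a fit of the other 6 stems, old stems 2, 3 and 4 had median layer differences of -1.50, -0.95 and -1.22. The other young stems were at -0.43, -0.16 and -0.16 for the same genes. Young stems 2 and 4 had medians of -0.43 and -0.60, while the old stems were at -2.02 and -1.95. In these 5 stems, 85.0% to 98.5% of the negative genes lay nearer to the mean of the remaining stems of their own age than to the other age. For all genes tested that share was 61.2% to 68.5%.

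Stem 1 of each age was less clearly placed. Left out, old stem 1 had a median of -0.90 for 1748 negative genes, and 73.1% of them lay nearer to the other old stems, against 59.0% of all genes. For 1213 positive genes its median was 0.26, with 50.1% nearer to the old stems, which is below the share for all genes. Young stem 1 had medians of -0.08 for negative and -0.06 for positive genes, between the ages, with 70.8% and 55.1% nearer to the young stems against 52.2% of all genes. Among positive genes the other 5 stems had shares of 78.7% to 95.2%. Without stem 1 of both ages the count of called genes was 3663, of which 2299 were among the 2840 and had the same direction.

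**Figure D4:**
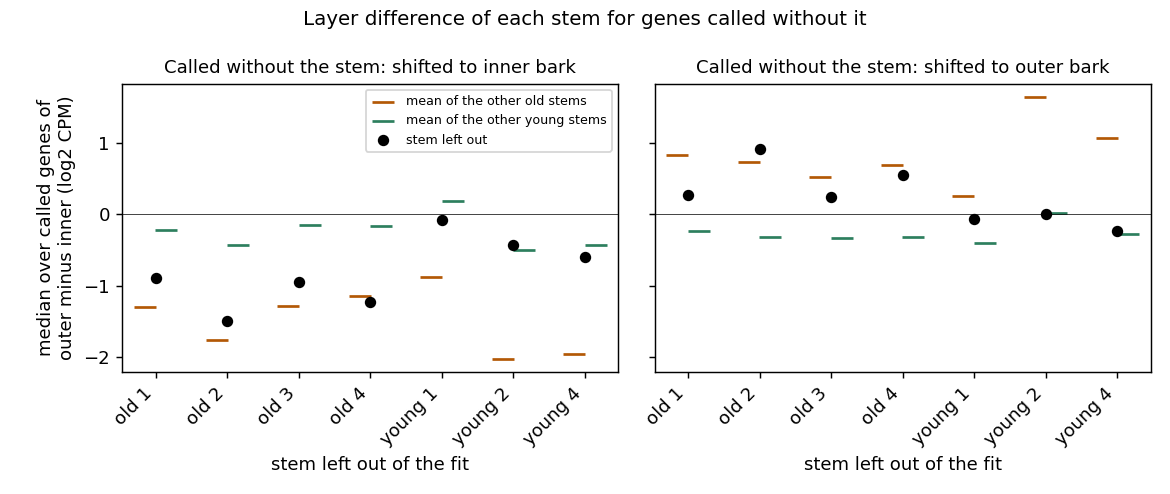
Median layer difference (vertical axis, outer minus inner in log2 CPM) of each stem (black points) over genes called in a fit without it, for negative (left) and positive (right) interactions, beside the means of the other old (brown) and young (green) stems. Old stems 2 to 4 lie nearer to the brown marks and young stems 2 and 4 nearer to the green ones in both panels, while stem 1 of each age lies about midway for positive interactions.

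With no names in the files, the 2 identifiers with the largest fitted interaction in each direction are given, from genes with a mean of at least 3 log2 CPM and stem differences that did not overlap between the ages. Potri.006G214300 changed which layer was higher. It was at 6.69, 16.5, 12.7 and 4.03 CPM in the outer and 14.2, 41.8, 23.1 and 19.0 CPM in the inner bark of old stems 1 to 4. In young stems 1, 2 and 4 it was at 3.19, 9.10 and 17.5 CPM in outer and 2.45, 1.83 and 5.10 CPM in inner bark. Inner bark was higher in each old stem and outer bark in each young stem, though by little in young stem 1.

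The layer difference of Potri.006G214300 averaged -1.37 ± 0.59 in old and 1.45 ± 0.97 log2 units in young stems (SD, n = 4 and 3). Its fitted interaction was -2.87 ± 0.45 log2 units (SE; edgeR adjusted p = 0.00929). The call was lost in 3 of 20 alternatives (adjusted p of 7.29e-07 to 0.959 over all of them). One was the fit without young stem 4 (edgeR adjusted p = 0.0588), and another the fit with no block (edgeR adjusted p = 0.959). The last was limma on stem differences at a prior count of 0.5 (limma adjusted p = 0.0502). In the authors' deposited tables, where a positive fold change means higher in inner bark, it had a log2 fold change of 1.263 in old stems and -1.662 in young stems, with edgeR adjusted p of 0.068 and 0.13.

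Potri.010G063000 had a layer gap in old stems only. It was at 9.27, 2.41, 1.64 and 0.720 CPM in the outer and 44.6, 18.3, 19.9 and 15.3 CPM in the inner bark of old stems 1 to 4. In young stems 1, 2 and 4 it was at 1.83, 82.4 and 7.17 CPM in outer and 1.55, 101.4 and 12.4 CPM in inner bark. Young stems differed widely from each other in level, but within each of them the 2 layers were close.

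Its layer difference averaged -3.19 ± 0.82 in old and -0.29 ± 0.50 log2 units in young stems (SD, n = 4 and 3). The fitted interaction of Potri.010G063000 was -2.64 ± 0.41 (SE; edgeR adjusted p = 0.00897). The call was lost in 4 of 20 alternatives (adjusted p of 3.33e-07 to 1.00 over all of them). One was the fit without young stem 2 (edgeR adjusted p = 0.0607), and another the fit with no block. The others were the random block (limma adjusted p = 0.0899) and limma on stem differences at a prior count of 0.5 (0.0539).

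Potri.009G132100 had the largest positive interaction among genes that met those conditions, and it also changed which layer was higher. It was at 1.39, 11.4, 10.96 and 9.80 CPM in the outer and 0.753, 0.153, 2.72 and 2.51 CPM in the inner bark of old stems 1 to 4. In young stems 1, 2 and 4 it was at 22.7, 28.9 and 24.6 CPM in outer and 37.3, 72.2 and 65.6 CPM in inner bark. All old libraries were below all young ones, and old inner bark was the lowest group.

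The layer difference of Potri.009G132100 averaged 2.48 ± 1.95 in old and -1.15 ± 0.38 log2 units in young stems (SD, n = 4 and 3). Old stem 2 reached 5.29, from 161 counts in outer and 2 in inner bark, while the other old stems were at 0.78 to 1.96. The fitted interaction was 3.60 ± 0.59 (SE; edgeR adjusted p = 0.0114). The call was lost in 5 of 20 alternatives (adjusted p of 0.00722 to 0.89 over all of them). Among these were the fits without young stem 2 (edgeR adjusted p = 0.0503) and without young stem 4 (0.0517). The others were the fit with no block and limma on stem differences at prior counts of 2 and 0.5 (adjusted p = 0.0822 and 0.104).

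Potri.001G339500 was at 2.93, 29.6, 64.6 and 47.0 CPM in the outer and 0.502, 0.767, 7.71 and 8.72 CPM in the inner bark of old stems 1 to 4. In young stems 1, 2 and 4 it was at 67.4, 108.2 and 65.5 CPM in outer and 42.96, 102.6 and 61.0 CPM in inner bark. Outer bark was far above inner bark in each old stem, and in young stems the layers were close. Its layer difference averaged 3.19 ± 1.28 in old and 0.28 ± 0.32 log2 units in young stems (SD, n = 4 and 3). The fitted interaction of Potri.001G339500 was 2.87 ± 0.45 (SE; edgeR adjusted p = 0.00939, and 2.97e-07 to 1.00 over all alternatives). Its call was lost in 4 of 20 alternatives: the fit with no block, the random block (limma adjusted p = 0.139) and both limma fits on stem differences (0.0651 and 0.0698).

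**Figure D5:**
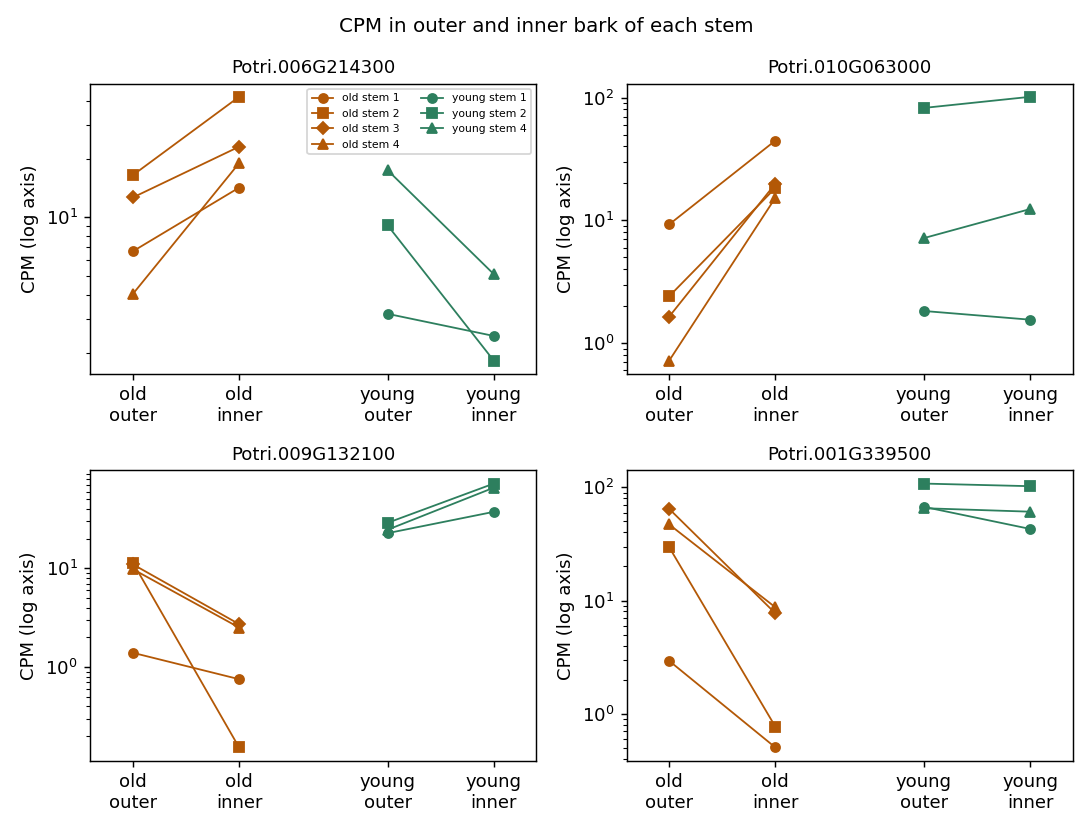
CPM on a log axis in the outer and inner bark of each stem (joined points) for the 4 identifiers named, with old stems in brown on the left of each panel and young stems in green on the right. Potri.006G214300 and Potri.009G132100 slope in opposite directions at the 2 ages, and Potri.010G063000 and Potri.001G339500 slope steeply in old stems only.

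The 12 genes with the largest negative interactions under these conditions ranged from -2.87 to -2.26 log2 units. Of these 12, 7 had a layer difference in old stems only, 4 in the same direction at both ages and 1 in opposite directions. The 12 largest positive interactions ranged from 1.74 to 3.60, with 4 in old stems only, 1 in young stems only, 2 in the same direction and 5 in opposite directions.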

How the data were processed

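The deposited table holds read counts of each gene in 14 libraries as unscaled whole numbers. The submitters' processing notes name HTSeq, edgeR, DESeq, Cufflinks, Bowtie, TopHat, Trimmomatic and CASAVA, while versions, roles and the genome build are not given in the sources used here. Per the labels' protocols, libraries did not keep strand, so overlapping genes cannot be told apart, and near-identical copies may share reads. Per the file headers, the authors' deposited comparison tables give p-values, adjusted p-values, log2 fold changes (inner over outer) and normalized counts, a score not used here. No per-sample column lacked a sample (0 columns).

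Of 41335 genes, 27673 passed filterByExpr and 13662 were removed. Counts with TMM factors were fitted with edgeR 4.0.16 (R 4.3.3) by the robust quasi-likelihood F test, with each numbered stem as a block, a layer term per age and 5 residual degrees of freedom. P-values were adjusted by Benjamini-Hochberg over all genes tested at a threshold of 0.05. A fold change's SE is its size divided by the square root of F. Layer differences used a prior count of 2. The fit was tested on simulated data.

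Stem numbers come from the titles. After subtracting group means, the 2 layers of one number correlated at 0.60 to 0.82 in old and 0.74 to 0.82 in young stems, above any other number of that age, so the numbers were taken to pair the layers. Within groups, every pair of libraries differed beyond sampling noise (chi-square per degree of freedom of at least 18.6). Pairs with stem 1 were at 63.5 to 161 and all other pairs at 18.6 to 38.9. The alternatives were RLE, upper-quartile and total-count scaling, DESeq2 1.42.0, limma 3.58.1, other filters and prior counts, fits without the block or with it at random, and leaving out stems. Named genes were the 12 per direction with the largest interaction among called genes with a mean of at least 3 log2 CPM and no overlap of stem differences, of which 2 per direction are printed, because the files give no names. For the same reason the gene lists by annotation and the marker lists could not be filled. The comparison and the lists were chosen with earlier results of these data known, and total-count scaling, the counts of 4-fold genes, the pattern counts per layer under each setting, the genes chosen in one age and the stems read when left out were added after seeing the data. Counting error alone limits low values.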

Additional observations from a re-analysis of the deposited data

Results flagged for a closer look

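The layer difference changed between the ages for 2840 genes by the test of the interaction, among them Potri.006G214300 (-2.87 log2 units), Potri.010G063000 (-2.64), Potri.009G132100 (3.60) and Potri.001G339500 (2.87).

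Values in the 4 old stems were examined for 1 value far from the others in 19 sets, of which 2 held one, where chance gives about 1 in 20. Potri.010G063000 was at 44.6 CPM in the inner bark of old stem 1, above the 15.3 to 19.9 CPM of the other old stems. Potri.009G132100 was at 1.39 CPM in the outer bark of old stem 1, below the 9.80 to 11.4 CPM of the others.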

How the results depend on the processing

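The count of 2840 genes lay within 1.5 times under RLE, upper-quartile and total-count scaling, DESeq2 and limma voom with the block, other filters and the fit that was not robust (2614 to 3126). The split was 1582 negative and 1202 positive with DESeq2 and 1517 and 1097 with no filter on low counts. With limma on the 7 stem differences it was 845 (604 negative, 241 positive) at a prior count of 2 and 408 (291 and 117) at 0.5. With the replicate block as a random effect it was 1367 (1088 negative, 279 positive). With no replicate block it was 0 (0 negative, 0 positive), and the layer difference was called for 2871 genes in old and 107 in young stems, against 10861 and 9219 in the paired fit. Leaving out 1 stem gave 781 to 2961 genes, 541 to 1748 negative and 206 to 1320 positive. Without stem 1 of both ages 1369 were positive. The layer difference in young stems was called for 4561 to 9858 genes and in old stems for 8511 to 10835 when 1 stem was left out. The old minus young difference in the SD per stem kept its sign (0.11 to 0.26 without 1 stem). None of the 4 printed genes reversed under its 20 alternatives, and the other named genes were not run. The cause of these differences was not tested. The 5 residual degrees of freedom and the 3 young stems limit the precision, and fold changes of genes near 0 counts are imprecise.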

Other observations

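Called genes were found at all levels. Genes were divided by mean log2 CPM into 3 groups of equal size. In the lowest group 6.82% were called, with a median interaction size of 1.84 log2 units. In the middle group 10.7% were called with a median of 1.10, and in the highest 13.2% with a median of 0.62. Negative genes outnumbered positive ones in each group, by 356 to 273, 733 to 256 and 845 to 377, under TMM scaling.

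Genes whose layers differed in old stems only were called for the interaction in 23.4% of 4833 cases. Those that differed in young stems only were called in 20.0% of 3191, and those that differed in the same direction at both ages in 14.1% of 5787. Of the 13621 genes that differed at neither age, 16 were called (0.117%), and of all genes tested 10.3%. Layer calls and interaction come from the same fit, so the order of these shares is fixed in part and supports nothing by itself.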
